A study of Mus musculus with 36 samples.

Results

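The acinar cells of the exocrine pancreas make and store the proteases that digest dietary protein, and the islets that were sampled here lie within that tissue. This report follows 8 of these protease genes, and all 8 were measured among the 14860 genes of the array table. They were chosen by name from the gene-level table, each through the only transcript cluster (a set of probes summed to 1 gene) that carries its symbol alone. Prss2 and 2210010C04Rik encode trypsinogens, Ctrb1 and Ctrl encode chymotrypsinogen-type proteases, Cela1 and Cela3b encode chymotrypsin-like elastases, and Cpa1 and Cpb1 encode carboxypeptidases. No threshold on the array values entered the choice, though earlier results of these data were known when it was made.

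Exon arrays were run on RNA of islets from male C57BL/6N mice, 1 array per mouse, in 4 groups. KO HFD islets came from 4 mice lacking a protein-coding exon of Gnaz in the whole body and fed a high-fat diet (HFD, 45 kcal% fat), WT HFD islets from 4 wild-type mice on the same diet, KO CD islets from 5 knockout mice on the control diet (CD, 10 kcal% fat), and WT CD islets from 5 wild-type mice on that diet. Gnaz encodes the inhibitory G protein subunit Gαz. All groups were fed for 16 weeks from 11 weeks of age; the labels then give an age of 6 months, the deposited protocol 37 to 40 weeks and the methods 27 weeks, and the files do not settle which is right. Islets were freed from acinar tissue by hand-picking. Bulk arrays do not show which cells of a preparation held the protease transcripts, and more such cells and more RNA per cell cannot be told apart. KO HFD islet 11 was left out of the group means and tests, which leaves 3 KO HFD arrays and 17 in all, and its own values are given beside them. Values below are listed by the islet numbers in the sample titles, 10, 17 and 18 for KO HFD, 7, 8, 9 and 16 for WT HFD, 1, 2, 3, 12 and 13 for KO CD, and 4, 5, 6, 14 and 15 for WT CD.

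The digestive proteases are made as inactive zymogens, packed in granules and released into the duct. In the gut, enteropeptidase cuts trypsinogen to trypsin, and trypsin then activates the other zymogens. Trypsins, chymotrypsins and elastases are serine proteases that cut inside a protein chain after different residues, whereas the carboxypeptidases are zinc enzymes that trim its C-terminal end. Within the pancreas, the trypsin inhibitor Spink1 guards against early activation. In adult acinar cells these genes are transcribed under the factor PTF1, in which Ptf1a with a partner binds an E-box and Rbpjl binds a TGGGAA element.

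Promoters of 4 of the proteases are printed because the 8 genes moved together and these 4 span the results: Cela1 with the largest difference between groups, Cpa1 with the smallest, Prss2 as a trypsinogen and Ctrb1 as the call nearest the threshold in KO HFD versus WT HFD. Each runs from 250 bases before the transcript start to 50 bases from it, in the gene's own direction, taken from RefSeq on GRCm38.p6. Capitals mark matches on either strand to the E-boxes CACCTG, read as CAGGTG from the other strand, and CAGCTG, to TGGGAA, read as TTCCCA from the other strand, and to AAGGTCA, read as TGACCTT from the other strand, which the nuclear receptor Nr5a2 can bind. No match overlaps another. The windows are chr15:100687871-100688170 (minus strand) for Cela1, chr6:30638968-30639267 (plus strand) for Cpa1, chr6:41521526-41521825 (plus strand) for Prss2 and chr8:111690961-111691260 (minus strand) for Ctrb1.
Cela1: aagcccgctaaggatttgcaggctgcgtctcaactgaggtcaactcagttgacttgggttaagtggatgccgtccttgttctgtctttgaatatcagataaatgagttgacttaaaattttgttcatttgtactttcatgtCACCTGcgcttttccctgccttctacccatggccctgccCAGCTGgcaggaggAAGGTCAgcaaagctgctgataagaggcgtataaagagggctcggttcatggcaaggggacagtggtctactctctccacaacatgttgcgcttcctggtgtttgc
Cpa1: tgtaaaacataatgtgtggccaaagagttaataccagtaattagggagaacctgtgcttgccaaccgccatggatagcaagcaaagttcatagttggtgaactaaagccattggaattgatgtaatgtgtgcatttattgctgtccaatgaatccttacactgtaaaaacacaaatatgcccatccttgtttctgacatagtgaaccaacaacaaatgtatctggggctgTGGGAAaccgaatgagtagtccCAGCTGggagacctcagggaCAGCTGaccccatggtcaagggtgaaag
Prss2: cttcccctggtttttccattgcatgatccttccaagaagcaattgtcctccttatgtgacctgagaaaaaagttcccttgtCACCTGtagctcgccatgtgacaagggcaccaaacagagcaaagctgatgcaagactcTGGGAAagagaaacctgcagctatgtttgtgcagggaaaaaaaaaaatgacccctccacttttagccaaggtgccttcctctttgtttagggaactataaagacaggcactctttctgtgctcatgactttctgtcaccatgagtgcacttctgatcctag
Ctrb1: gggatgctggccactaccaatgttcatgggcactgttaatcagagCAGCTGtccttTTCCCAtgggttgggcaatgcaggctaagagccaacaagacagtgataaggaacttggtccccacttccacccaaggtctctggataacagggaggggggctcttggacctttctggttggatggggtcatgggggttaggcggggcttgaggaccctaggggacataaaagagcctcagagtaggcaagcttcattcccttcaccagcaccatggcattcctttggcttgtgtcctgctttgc

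All 8 genes had a promoter in the RefSeq table. CACCTG was in 6 of the 8 (all but Ctrb1 and Cpa1) and in 20.21% of all 32851 promoters of the same length, CAGCTG in 4 (Ctrb1, Ctrl, Cela1 and Cpa1) and 16.3%, TGGGAA in 5 (all but Cela1, Cela3b and Cpb1) and 25.56%, and AAGGTCA in 1 (Cela1) and 4.72%. An E-box together with TGGGAA was in 5 of the 8 and in 8.64% of all promoters. The matches are letters in a window, and the arrays do not measure binding. The elastase with the largest difference, Cela1, held E-boxes without TGGGAA, and Cpa1, with the smallest, held both E-boxes after its start.

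The check of the labels came from Gnaz itself. It averaged 10.08 ± 0.044 on the log2 scale in KO HFD islets, 11.10 ± 0.11 in WT HFD islets, 10.37 ± 0.14 in KO CD islets and 11.11 ± 0.043 in WT CD islets (SD, n = 3, 4, 5 and 5), with no overlap between genotypes. The left-out KO HFD 11 read 10.06. Only 1 exon is deleted, so other probes of the cluster can still be read in knockout islets. Beta cell markers were high on all arrays, with Ins2 between 13.74 and 13.95 and 9 of the 10 listed beta cell markers measured. KO HFD 11 carried intestinal epithelium genes (a mean of 11.38 over 12 genes, against 7.69 to 7.92 on the other 17 arrays), among them Tmprss15, the gut enteropeptidase that activates trypsinogen, at 6.98 against 4.40 to 4.61. KO CD 13 and WT CD 14 stood apart in leukocyte and fibroblast genes, and comparisons were also run without them.

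The protease genes were among the brightest on the array. Every array was summarized on a log2 scale by robust multi-array averaging (RMA), and on each the highest of all 23332 clusters lay between 14.54 and 14.74. Between 11 and 24 clusters per array exceeded 14. By mean level over the 17 arrays Cpa1 ranked 2 of all clusters at 14.38, Ctrb1 3 at 14.33, 2210010C04Rik 6 at 14.25, Ctrl 12 at 14.11, Cpb1 14 at 14.06, Cela3b 29 at 13.83, Prss2 41 at 13.68 and Cela1 79 at 13.39. Probe sets differ in brightness, so this order is not an order of mRNA amounts. The brightest protease of an array lay 0.11 to 0.46 below that array's highest value, which leaves little room upward on the scale. The values are given first for the elastases, the dimmest of these genes together with Prss2.

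Cela1 encodes an elastase and had the widest differences. It read 13.86, 13.67 and 13.65 in KO HFD islets, 13.16, 12.88, 12.76 and 12.37 in WT HFD islets, 13.37, 13.07, 13.49, 13.17 and 13.65 in KO CD islets and 13.69, 13.85, 13.79, 13.33 and 13.85 in WT CD islets. The WT HFD arrays were lowest and did not overlap with KO HFD or WT CD arrays. KO CD arrays were spread between, islet 2 below the highest WT HFD array and islets 1, 3 and 13 inside the WT CD range. The left-out KO HFD 11 read 13.33, below the other KO HFD arrays and above all WT HFD arrays.

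Cela3b encodes a second pancreatic elastase and followed the same order. It read 14.34, 13.94 and 14.00 in KO HFD islets, 13.65, 13.59, 13.34 and 13.22 in WT HFD islets, 13.79, 13.51, 13.77, 13.54 and 13.99 in KO CD islets and 14.06, 14.17, 14.18, 13.84 and 14.22 in WT CD islets. KO HFD and WT HFD arrays did not overlap, and neither did WT HFD and WT CD arrays. KO HFD 11 read 13.87.

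Among the trypsinogens, Prss2, known in mice as a major anionic trypsinogen, read 14.05, 13.73 and 13.81 in KO HFD islets, 13.56, 13.49, 13.35 and 13.32 in WT HFD islets, 13.57, 13.51, 13.55, 13.57 and 13.89 in KO CD islets and 13.82, 13.92, 13.89, 13.65 and 13.85 in WT CD islets. KO CD 13 stood above the other 4 KO CD arrays, which lay between 13.51 and 13.57, and KO HFD 11 read 13.62. 2210010C04Rik, a trypsinogen gene listed on the array by its clone name, read 14.38, 14.30 and 14.33 in KO HFD islets, 14.22, 14.17, 14.16 and 14.03 in WT HFD islets, 14.19, 14.23, 14.22, 14.16 and 14.36 in KO CD islets and 14.27, 14.33, 14.34, 14.28 and 14.32 in WT CD islets. Its KO HFD arrays lay above all WT HFD arrays, but KO HFD 11, at 14.21, lay below the highest WT HFD array, the only protease for which it did so. Mouse trypsinogens form a family of near copies, so the probes of these 2 genes may also read other members, and their values are uncertain in that respect.

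The chymotrypsinogen genes sat closer to the top of the scale. Ctrb1 read 14.46, 14.38 and 14.40 in KO HFD islets, 14.28, 14.29, 14.27 and 14.14 in WT HFD islets, 14.24, 14.22, 14.29, 14.19 and 14.44 in KO CD islets and 14.41, 14.44, 14.45, 14.33 and 14.44 in WT CD islets. Ctrl, which encodes a chymotrypsin-like protease, read 14.28, 14.22 and 14.26 in KO HFD islets, 14.07, 13.94, 13.87 and 13.74 in WT HFD islets, 14.09, 13.96, 14.12, 14.00 and 14.20 in KO CD islets and 14.21, 14.28, 14.25, 14.12 and 14.25 in WT CD islets. For both, WT HFD arrays lay wholly below KO HFD and WT CD arrays, and for Ctrl the KO HFD arrays also lay wholly above the KO CD arrays. KO HFD 11 read 14.36 for Ctrb1 and 14.10 for Ctrl.

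Of the carboxypeptidases, Cpb1, whose product removes basic C-terminal residues, read 14.28, 14.16 and 14.17 in KO HFD islets, 13.97, 13.89, 13.84 and 13.68 in WT HFD islets, 14.04, 13.94, 14.03, 13.96 and 14.23 in KO CD islets and 14.17, 14.20, 14.25, 14.11 and 14.19 in WT CD islets. Cpa1, whose product removes aromatic and aliphatic C-terminal residues, read 14.45, 14.41 and 14.42 in KO HFD islets, 14.36, 14.32, 14.30 and 14.21 in WT HFD islets, 14.38, 14.29, 14.39, 14.32 and 14.50 in KO CD islets and 14.44, 14.45, 14.45, 14.37 and 14.42 in WT CD islets. Cpa1 kept the same group order as the rest over a span of only 0.29 from the lowest array to the highest. It was the only protease whose highest array was KO CD 13 and not KO HFD 10. KO HFD 11 read 14.04 for Cpb1 and 14.37 for Cpa1.

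**Figure D1:**
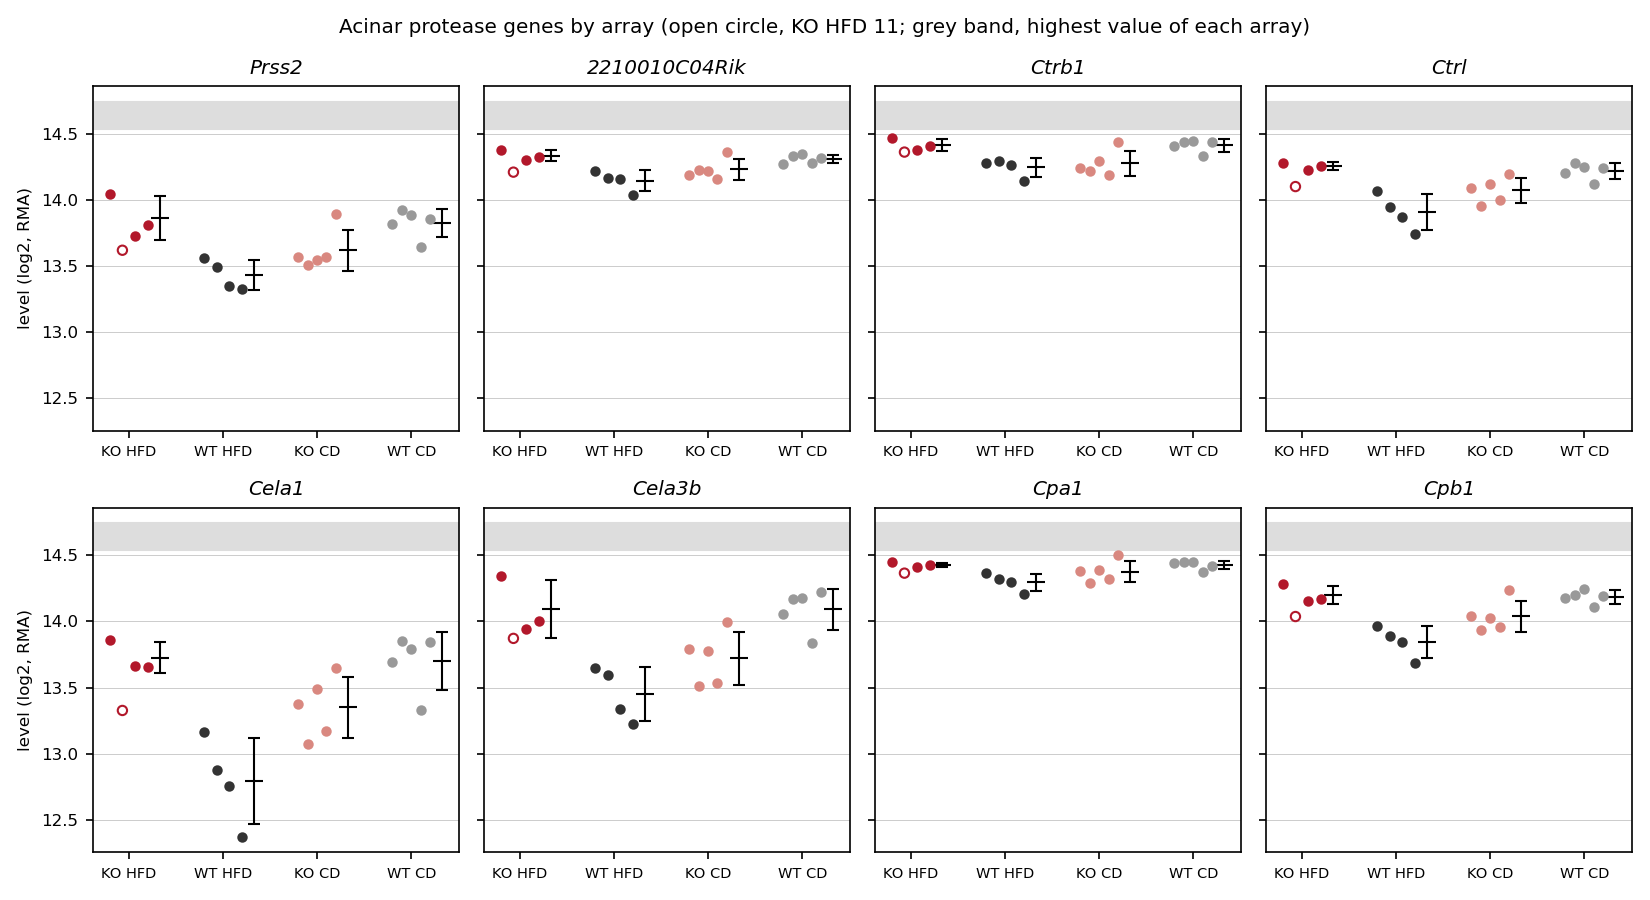
Level of each of the 8 protease genes (log2, RMA) on every array by group, with 1 point per mouse, group mean ± SD over the 17 arrays used, the left-out KO HFD 11 as an open circle and the range of the highest value of each array as a grey band. The WT HFD mean is the lowest of the 4 for every gene, with Cela1 between 12.37 and 13.16 in WT HFD islets, and the Cpa1, Ctrb1 and 2210010C04Rik points crowd below the band.

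In the KO HFD versus WT HFD comparison, which gives the genotype difference on the high-fat diet, 7 of the 8 proteases were called higher. Cela1 was higher by 0.93 ± 0.17 (log2, SE; 1.91-fold), Cela3b by 0.65 ± 0.14, Prss2 by 0.43 ± 0.099, Cpb1 by 0.36 ± 0.074, Ctrl by 0.35 ± 0.072, 2210010C04Rik by 0.19 ± 0.056 and Ctrb1 by 0.17 ± 0.060. Errors of log2 differences are SE here and below. The limma adjusted p-values over all genes were 0.0017 for Cela1, 0.0033 for Ctrl, 0.0033 for Cpb1, 0.0034 for Cela3b, 0.0056 for Prss2, 0.019 for 2210010C04Rik and 0.043 for Ctrb1. Cpa1 differed by 0.13 ± 0.053 (1.10-fold, adjusted p = 0.072) and did not pass. In all 8 the KO HFD arrays lay wholly above the WT HFD arrays, which was so for 2.22% of all genes, and 7 of 8 still did with KO HFD 11 counted.

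This direction ran against that of the array as a whole. Of all 14860 genes, 1.32% were called higher in this comparison, 28.1% lower and 29.4% in either direction, the median difference of all genes being -0.13, whereas the median of the 8 proteases was 0.35. The extent of this background depended on the scaling. The median difference of all genes was -0.05 after median centring, -0.04 after quantile normalization and -0.02 after cyclic loess. The genes called in either direction then numbered 2251, 1897 and 1639, against 4372 as deposited. KO HFD 10, 17 and 18 had lower array medians (7.98, 7.96 and 7.94) than any other array. With all 18 arrays, 6 of the 8 passed, Ctrb1 losing its call (adjusted p = 0.052). Ctrb1 lost its call in 16 of the 30 other settings tried. Among them was leaving out WT CD 4 (limma adjusted p = 0.054), which is not in the comparison. After quantile normalization 5 passed, with 2210010C04Rik and Ctrb1 at 0.099 each (adjusted p = 0.13 and 0.12), whereas 8 passed after median centring or cyclic loess, Cpa1 at 0.21 and 0.26. The median difference over the proteases was 0.35 among islets 1 to 11 (1 KO HFD and 3 WT HFD arrays) and 0.46 among islets 12 to 18 (2 KO HFD and 1 WT HFD arrays). Because the groups did not overlap for any protease, the sign in each range was fixed in advance and adds no support. The single arrays were KO HFD 10, the highest of all for 7 proteases, and WT HFD 16, the lowest for 8.

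The KO HFD versus KO CD comparison gives the diet difference in knockout islets. Here 3 of the 8 proteases rose, against 1.45% of all genes called higher, 44.6% called lower and 46.1% called in either direction. Cela3b was higher by 0.37 ± 0.13 (adjusted p = 0.026), Prss2 by 0.24 ± 0.094 (0.044) and Ctrl by 0.18 ± 0.069 (0.039). Cela1, at 0.38 ± 0.16, had as large a difference as Cela3b with more spread (adjusted p = 0.067). The others gave 0.16 for Cpb1, 0.14 for Ctrb1, 0.10 for 2210010C04Rik and 0.05 for Cpa1, with adjusted p-values from 0.056 to 0.45. KO HFD arrays lay wholly above KO CD arrays for Ctrl and Cela1, 2 of 8 proteases against 1.23% of all genes, and for none of the 8 with KO HFD 11 counted.

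These 3 calls were not steady. With all 18 arrays only Cela3b was called, without KO HFD 10, KO CD 2 or KO CD 12 none was, without KO HFD 18 there was 1, without WT HFD 16 there were 5, and without KO CD 13 there were 7. The median over the proteases was 0.25 among islets 1 to 11 (1 KO HFD and 3 KO CD arrays) and 0.07 among islets 12 to 18 (2 arrays each). The scaling mattered too: arrays centred on their medians, which moved the median of all genes to -0.06 against -0.18 as deposited, gave 8 calls. Quantile normalization, which moved that median to -0.03, gave only 2.

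The WT HFD versus WT CD comparison gives the diet difference in wild-type islets, and it ran the other way. Cela1 fell by 0.91 (SE 0.15, 0.53-fold, adjusted p = 0.024), Cela3b by 0.64 (SE 0.12, 0.040) and Cpb1 by 0.34 (SE 0.065, 0.047). These are 3 of only 25 genes called lower on the whole array, 0.168% of those tested, while 0.0202% were called higher and 0.188% in either direction. Prss2 (-0.40, adjusted p = 0.098) and Ctrl (-0.31, 0.063) did not pass, nor did 2210010C04Rik, Ctrb1 and Cpa1, at -0.16, -0.17 and -0.13. In all 8 the WT HFD arrays lay wholly below the WT CD arrays, which was so for 2.23% of all genes.

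These calls depended on single arrays as well. None passed without WT HFD 8, WT HFD 9, WT HFD 16, WT CD 5, WT CD 6 or WT CD 15, 1 passed without KO CD 1, KO CD 3 or WT CD 4, and 5 passed without KO HFD 10 or KO CD 13, the fits sharing 1 estimate of the spread. Without any one of the first 6 arrays, 0 to 2 of all genes were called, while the differences stayed at -0.94 to -0.77 for Cela1, -0.69 to -0.57 for Cela3b and -0.35 to -0.28 for Cpb1. WT HFD 16 was the lowest of the 17 arrays for 8 of 8 proteases. The median difference was -0.30 among islets 1 to 11 (3 arrays each) and -0.43 among islets 12 to 18 (1 WT HFD and 2 WT CD arrays). The single WT HFD array there was WT HFD 16. As the groups did not overlap for any protease, the sign in each range was fixed in advance and adds no support.

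On the control diet no protease was called between genotypes. In the KO CD versus WT CD comparison 0 of 8 proteases passed in limma, against 0.0135% of all genes called lower, 0.141% higher and 0.155% in either direction. An unadjusted limma p under 0.05 was found for 6 of 8, and for 2322 of all 14860 genes. Differences ran from -0.37 for Cela3b to -0.05 for Cpa1, with a median of -0.15, and KO CD and WT CD arrays overlapped for 8 of 8, as they did for most genes (2.96% of all genes lay wholly above and 0.43% wholly below). The sign held under every other scaling tried but for 2210010C04Rik, whose difference of -0.08 became 0.0044 after quantile normalization. Among islets 1 to 11 (3 arrays each) 8 of 8 differences were below 0 with a median of -0.20, and among islets 12 to 18 (2 arrays each) 7 of 8 with a median of -0.06.

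The difference between the genotype differences on the 2 diets was tested itself, as the interaction of genotype and diet, and passed for 7 of 8 proteases, against 1.45% of all genes with a positive call, 31.2% with a negative one and 32.6% with either. It was 1.29 ± 0.22 for Cela1 (adjusted p = 0.0029), 1.02 ± 0.18 for Cela3b (0.0030) and 0.64 ± 0.13 for Prss2 (0.0044). For Cpb1 and Ctrl it was 0.50 each, for Ctrb1 0.31 and for 2210010C04Rik 0.27, with adjusted p-values from 0.0038 to 0.013. Cpa1, at 0.18 ± 0.069, had an adjusted p of 0.054. Of all genes, 4849 had an interaction call as deposited and 1110 after cyclic loess. KO HFD means, without KO HFD 11, were above the WT CD means by 0.00098 to 0.036 for all 8. This pair of groups differs in both factors and was not tested. For the mean of the 8 genes, only KO HFD 10, at 14.26, lay above the WT CD mean of 14.15. Islets 17 and 18 had 14.10 and 14.13, and the left-out KO HFD 11 had 13.99. Cela1 averaged 13.73 ± 0.11 in KO HFD islets and 13.70 ± 0.22 in WT CD islets (SD, n = 3 and 5).

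**Figure D2:**
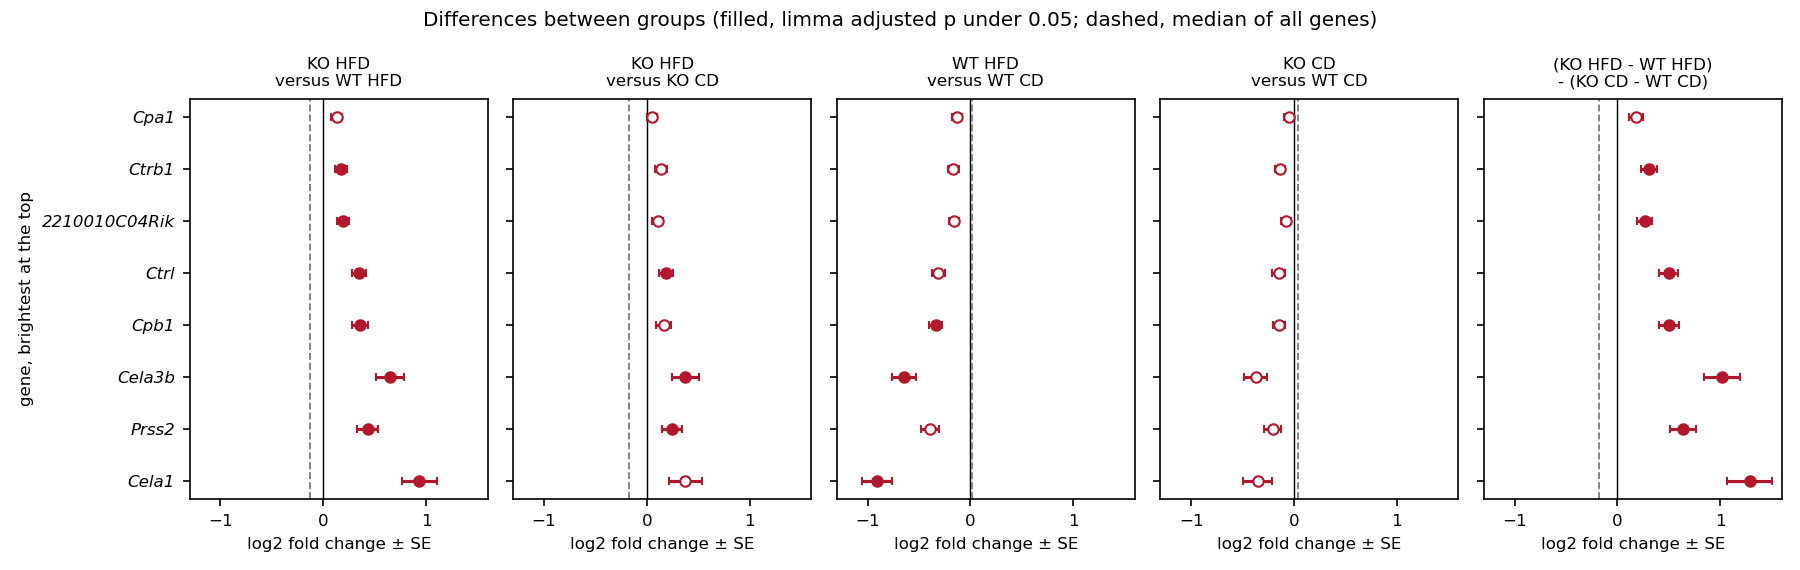
Log2 fold change ± SE (limma) of the 8 protease genes in the 4 comparisons and the interaction, genes ordered by mean level with the brightest at the top; filled points passed an adjusted p of 0.05, and the dashed line is the median of all 14860 genes. Cpa1, the brightest gene, has the smallest difference in every panel, 0.13 against 0.93 for Cela1 in KO HFD versus WT HFD.

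Differences were narrower in the brighter genes. Over the 17 arrays the highest and lowest values of Cela1 were 1.49 apart, those of Cela3b 1.12, Prss2 0.72, Cpb1 0.59, Ctrl 0.54, 2210010C04Rik 0.34, Ctrb1 0.32 and Cpa1 0.29. The order of these spans is the reverse of the order of mean levels, apart from Prss2, which was dimmer than Cela3b and spanned less. Another 24 genes, the measured digestive enzymes and other acinar genes, were set beside them: the 7 acinar genes with a mean of 14 or more, proteases included, had a median span of 0.41, the 8 between 13 and 14 a median of 1.17 and the 3 between 12 and 13 a median of 2.47, while dimmer ones varied widely. Over all clusters, the medians of these 3 levels were 0.34, 0.35 and 0.46.

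Clusters at the top of the scale were not uniformly narrow. Of the 16 with a mean of 14 or more, 5 were the proteases named above, and the islet hormone genes Ppy, Iapp and Gcg spanned 0.39, 0.25 and 0.35. The widest, at 0.95 and 0.84, were 2 clusters that each carry several symbols, pancreatic proteases among them, and were left out of the tests for that reason. A narrow span near the highest value can come from a gene that varied little or from probes that no longer follow the amount, and these cannot be told apart in the summarized values, so the differences of Cpa1, Ctrb1 and 2210010C04Rik are read here as what the array returned and not as amounts.

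**Figure D3:**
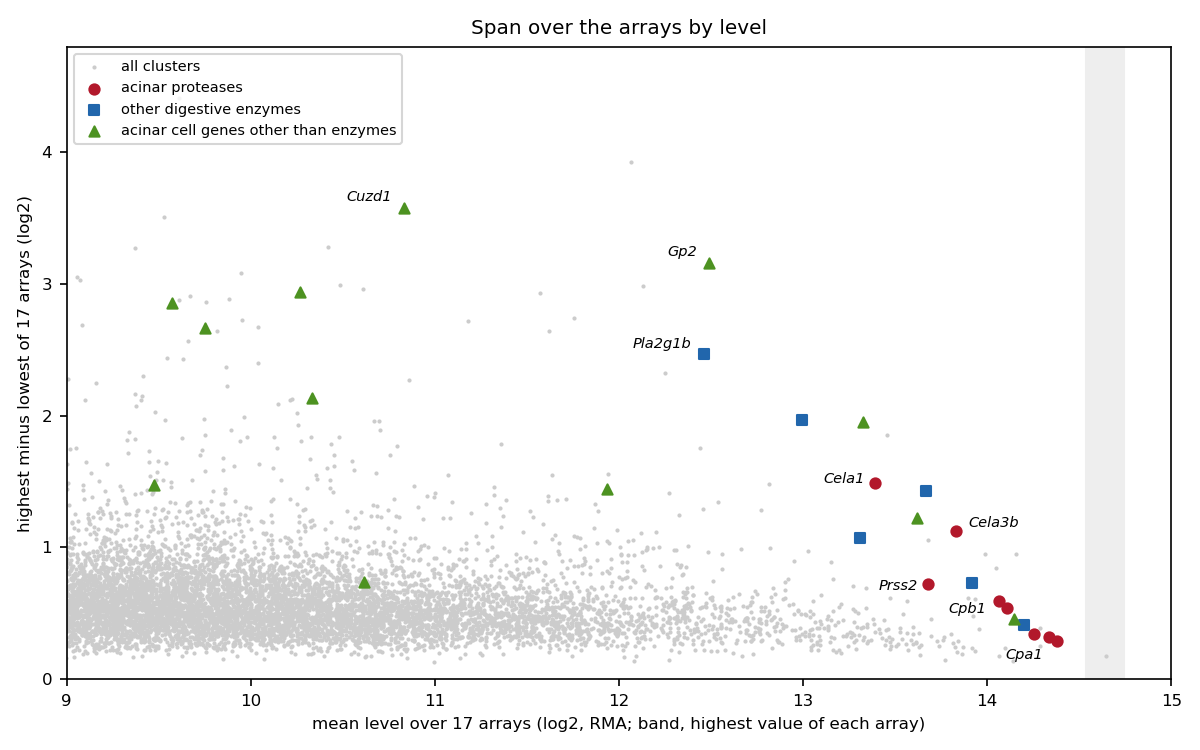
Difference between the highest and lowest of 17 arrays (log2) against mean level (log2) for every cluster (grey) and for the acinar proteases, other digestive enzymes and other acinar genes; the band gives the highest value of each array, and dimmer clusters are not drawn. Acinar genes descend from spans of 1.96 to 3.16 at a level of 12 to 13 to between 0.29 and 0.59 above 14.

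The arrays ranked in much the same order for each gene. KO HFD 10 was the highest of the 17 for 7 proteases and WT HFD 16 the lowest for 8, and the mean of the 8 genes ran from 14.10 to 14.26 in KO HFD islets, 13.59 to 13.91 in WT HFD islets, 13.84 to 14.16 in KO CD islets and 14.00 to 14.20 in WT CD islets, with 13.99 for KO HFD 11. Over the 28 pairs of proteases, Pearson's r across the 17 arrays lay between 0.88 and 0.99 with a median of 0.93, as a description, since the arrays share the group structure. The 8 other genes most like the mean of the proteases were Cel (bile salt-activated lipase), Zg16 (a zymogen granule protein), Pnliprp2 and Pnliprp1 (pancreatic lipase-related), Rnase1 (pancreatic ribonuclease), Tff2 (a secreted trefoil factor), Serpini2 (a serpin of acinar cells) and Cuzd1 (a zymogen granule membrane protein), with r from 0.96 to 0.99 over the 17 arrays.

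Other acinar genes moved with the proteases, and their part in the protease differences was not tested. In KO HFD versus WT HFD, 7 of 7 other digestive enzymes rose (median 0.78), including Pla2g1b, a secreted phospholipase, by 1.16 ± 0.25, and Pnliprp2 by 1.01 ± 0.22. Of 17 acinar genes other than enzymes, 11 rose (median 1.00), including Gp2, a granule membrane glycoprotein, by 1.75 ± 0.32 and Cuzd1 by 1.97 ± 0.36, with limma adjusted p-values of 0.0018 and 0.0019. Of all genes, 1.32% were called higher in that comparison. With all 18 arrays, 6 of 7 enzymes and 10 of 17 other acinar genes were called higher. The mean of the 17 acinar genes other than enzymes was 11.25 in KO HFD 10, 10.18 in KO HFD 17 and 18 and 10.05 in the left-out KO HFD 11. It was 9.40 to 9.87 in WT HFD islets, 9.90 to 10.60 in KO CD islets and 10.32 to 10.83 in WT CD islets. All KO HFD arrays but KO HFD 10 thus lay inside the KO CD range and below every WT CD array. In WT HFD versus WT CD, 5 of 7 enzymes (median -0.76) and 6 of 17 other acinar genes (median -1.14) fell, beside 0.168% of all genes. None of these calls remained without WT HFD 9, WT HFD 16, WT CD 5, WT CD 6 or WT CD 15, when no gene of the array was called. In KO HFD versus KO CD, 4 of 7 enzymes and 4 of 17 other acinar genes rose, beside 1.45% of all genes. With all 18 arrays only 1 of each list was called higher. In KO CD versus WT CD none of either list passed in limma. There 5 enzymes and 10 other acinar genes had an unadjusted p under 0.05, as did 2322 of all 14860 genes.

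Beta cell markers spanned less, with list means of 12.78 to 12.90 in KO HFD islets, 12.92 to 13.06 in WT HFD islets, 12.91 to 13.18 in KO CD islets and 12.90 to 13.00 in WT CD islets. The left-out KO HFD 11 had 12.94. In KO HFD versus WT HFD, 3 of 9 beta cell markers, 3 of 5 alpha and delta cell markers and 5 of 5 endothelial markers fell. As deposited, 28.1% of all genes were called lower there, and fewer were under the other scalings. Of 6 duct cell markers 1, Muc1, rose by 1.35 ± 0.35 (limma adjusted p = 0.010). The leukocyte list and the stellate cell and fibroblast list each had 1 gene called, lower in KO HFD islets. Counted over all 18 arrays, 3 beta cell and 4 endothelial markers were called lower. The alpha and delta cell, leukocyte, and stellate cell and fibroblast lists then had 0 called.

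Of the protease inhibitors, a pair had wide differences lower on the scale. Spink1, the trypsin inhibitor, read 11.09, 9.51 and 9.69 in KO HFD islets, 8.82, 8.35, 7.96 and 7.58 in WT HFD islets, 9.42, 9.15, 9.22, 9.14 and 10.74 in KO CD islets and 10.14, 10.25, 10.38, 10.11 and 10.43 in WT CD islets. KO HFD and WT CD arrays lay above all WT HFD arrays. It rose by 1.92 ± 0.39 (3.79-fold, adjusted p = 0.0031) in KO HFD over WT HFD islets and fell by 2.08 (SE 0.34, adjusted p = 0.024) in WT HFD versus WT CD. The latter call was lost without WT HFD 9, WT HFD 16, WT CD 5, WT CD 6 or WT CD 15. KO HFD 11 read 9.54 for Spink1.

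Serpini2 read 12.89, 11.69 and 11.73 in KO HFD islets, 11.02, 10.66, 10.59 and 9.96 in WT HFD islets, 11.24, 11.00, 11.37, 11.01 and 12.01 in KO CD islets and 12.10, 12.62, 12.45, 11.82 and 12.55 in WT CD islets. It rose by 1.54 ± 0.31 (adjusted p = 0.0028) in KO HFD over WT HFD islets and fell by 1.75 (SE 0.27, 0.024) in WT HFD versus WT CD. The latter call was lost without any one of the arrays named for Spink1. KO HFD 11 read 11.26 for Serpini2, below the other KO HFD arrays, inside the KO CD range and above all WT HFD arrays. Both inhibitors were lowest in WT HFD islets and next lowest in KO CD islets, as the proteases were. Their KO HFD means were below their WT CD means, and this order is not read as a difference from the proteases. Of the 6 measured activators and inhibitors, Spint2, a membrane-bound Kunitz-type inhibitor that many epithelia make, fell by 0.29 (SE 0.070, adjusted p = 0.0081) in KO HFD islets relative to WT HFD islets. In that comparison 28.1% of all genes were called lower as deposited, and fewer were under the other scalings. Spint2 lost its call with all 18 arrays (limma adjusted p = 0.056). Spint1, A2m and Tmprss15 were not called.

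Set against the mean of the 17 acinar genes, each protease changed less than that mean. Per unit of the mean (log2 per log2, over 17 arrays), Cela1 changed by 0.80, Cela3b by 0.62, Prss2 by 0.41, Cpb1 by 0.31, Ctrl by 0.29, Ctrb1 by 0.18, 2210010C04Rik by 0.17 and Cpa1 by 0.13, as a description. Spink1 changed by 1.90, and Cuzd1, set against the mean of the other genes of that list, by 1.95. At a single array, KO HFD 10, the mean of the 17 acinar genes was 11.25, against at most 10.83 in WT CD islets, while its Cela1 level was 13.86, against a highest WT CD value of 13.85. Cela3b and Prss2 separated more there, at 14.34 and 14.05 in KO HFD 10 against highest WT CD values of 14.22 and 13.92. Cpb1, 2210010C04Rik, Ctrb1 and Ctrl also lay above every WT CD array there, and Cpa1 did not.

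**Figure D4:**
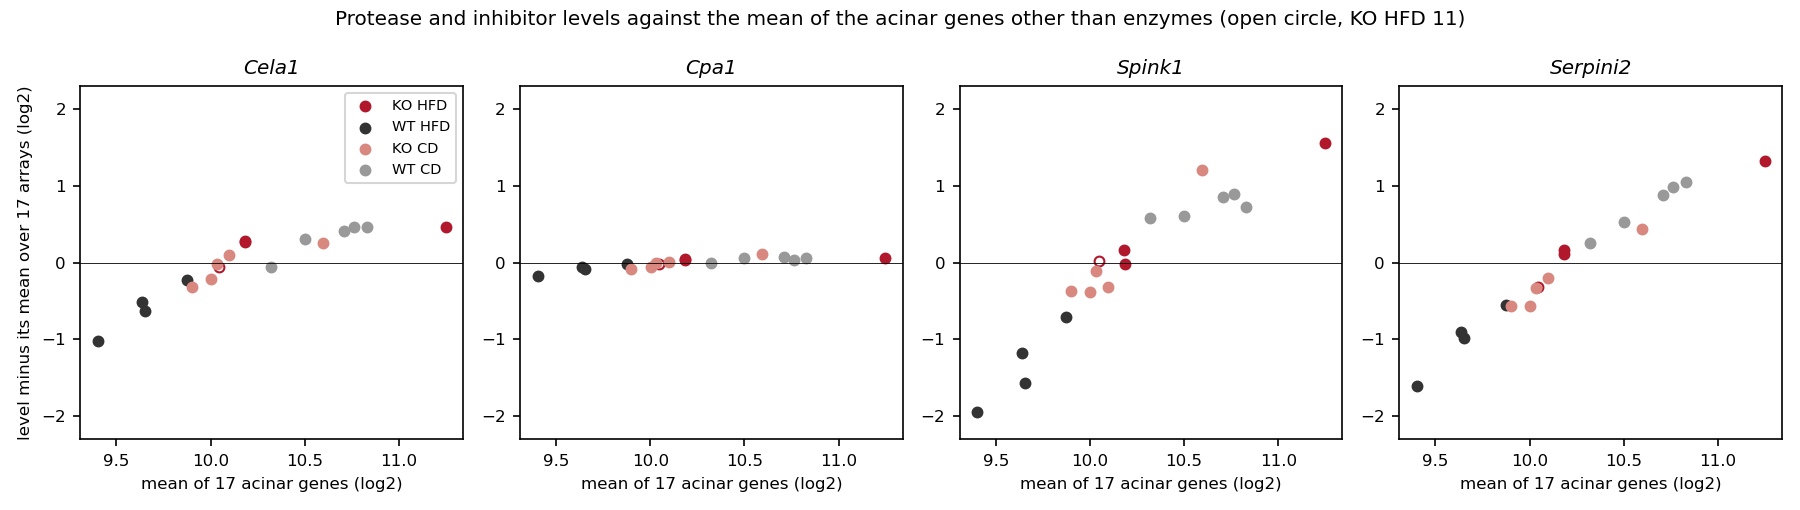
Level of Cela1, Cpa1, Spink1 and Serpini2 on each array, minus the gene's mean over 17 arrays (log2), against the mean of 17 acinar genes other than enzymes (log2), coloured by group, with KO HFD 11 open. Cela1 in KO HFD 10, the only array with an acinar mean above 10.83, is level with its highest WT CD values. Cpa1 stays within 0.29 throughout, and Spink1 and Serpini2 climb over spans of 3.51 and 2.93.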

How the data were processed

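The authors hybridised total islet RNA to mouse exon arrays, and the deposited gene-level table holds log2 values that the authors made by RMA (background correction, normalization between arrays and summarization) in Affymetrix Expression Console 1.3. RMA puts all arrays on 1 scale, so a value is relative to the other probes of its array. The genome build is not given in the sources used here, and probe intensities and the exon-level samples were not analysed here.

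Clusters with 1 symbol were kept (14996 of 23332, the brightest per gene, giving 14860 genes). Group means over 17 arrays were fitted with limma 3.58.1 in R 4.3.3 (lmFit, contrasts, eBayes), with Benjamini-Hochberg adjustment over all genes and a threshold of 0.05. The methods say that 1 KO HFD array was removed without naming it; the study's fold changes correspond to leaving out KO HFD islet 11. Groups came from the labels, and each array is 1 mouse. Errors are limma standard errors or SDs, and the number of arrays limits the precision. The members and gene lists were chosen with earlier results of these data known. Named genes are the 8 proteases, up to 4 genes per list and comparison of smallest adjusted p, Gnaz, and the 8 genes most correlated with the proteases' mean. Other settings tried were the full set of 18 arrays, dropping single arrays, other scalings, variance models and filters, and islet numbers as a block. The fit was tested on simulated data. Descriptions used Python 3.11.15 with numpy 2.4.6, pandas 2.3.3 and matplotlib 3.10.9.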

Additional observations from a re-analysis of the deposited data

Results flagged for a closer look

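Prss2 in KO CD 13, at 13.89, lay far from the other 4 KO CD arrays, at 13.51 to 13.57. It was the only such sample in 32 groups of 4 or 5 arrays tested (8 proteases in 4 groups, KO HFD 11 counted), where chance alone flags about 1 group in 20.

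The genotype difference on HFD exceeded that on CD for 7 of the 8 proteases by the limma interaction test. The difference between them was 0.64 for Prss2, 0.27 for 2210010C04Rik, 0.31 for Ctrb1, 0.50 for Ctrl, 1.29 for Cela1, 1.02 for Cela3b and 0.50 for Cpb1, on the log2 scale.

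The array left out, KO HFD 11, carried a signal that the other 17 did not. Tmprss15 (enteropeptidase) read 6.98 there, against 4.40 to 4.61 elsewhere, and the mean of 12 intestinal epithelium markers was 11.38, against 7.69 to 7.92.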

How the results depend on the processing

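No paired analysis was possible because no islet number occurs in more than 1 of the groups compared. No protease changed direction in a called difference under any setting. In KO CD versus WT CD and in the interaction, the number of proteases called stayed within 1.5 times its value throughout.

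In KO HFD versus WT HFD (7 called), leaving out single arrays gave 5 to 7, and all 18 arrays but KO HFD 10 gave 4. In KO HFD versus KO CD (3 called), the count was 8 after median centring, 7 after cyclic loess and 2 after quantile normalization. It was 5 with trend and robust eBayes, without the dimmest genes or with islet numbers as a block, and 1 with array weights or all 18 arrays. It was 7 without KO CD 13 and WT CD 14, 0 in 18 arrays without KO HFD 10, 0 at a threshold of 0.01, and 0 to 7 leaving out single arrays. In WT HFD versus WT CD (3 called), it was 1 after median centring or quantile normalization, 8 with array weights, 5 without KO CD 13 and WT CD 14 or in 18 arrays without KO HFD 10, 0 at a threshold of 0.01, and 0 to 5 leaving out single arrays. The settings without KO CD 13 and WT CD 14, and without KO HFD 10 in 18 arrays, were chosen after seeing the data. The cause was not tested. Whether the top of the signal range narrowed the brightest genes could not be tested without probe intensities.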
